A study of Mus musculus with 3 samples.

Results

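The CXC chemokine ligands Cxcl1, Cxcl2, Cxcl3 and Cxcl5, their receptor Cxcr2, the colony-stimulating factors Csf1, Csf2 and Csf3 and the receptor Csf3r are 9 genes through which tissue calls up neutrophils and other myeloid cells. The genes were chosen with earlier results of these data known. For each gene, the entry of each table that matches it on GRCm38 and is alone at its locus was taken. All 9 were found among 31930 entries per table, of which 17828 were given a symbol. RNA was sequenced from 3 libraries of mouse heart cells, 1 for each group, from mice of 12 weeks by the labels. Uninjured fibroblasts came from ventricles of wild type C57BL/6 mice without infarction and attached to culture plates for 4 h before lysis. FSP1+ fibroblasts were GFP+ CD45- CD31- cells of FSP1-GFP mice, in which the promoter of FSP1 (gene S100a4) drives GFP, sorted 10 days after myocardial infarction (MI). αSMA+ fibroblasts were sorted at the same time on GFP alone from αSMA-GFP mice, in which the promoter of αSMA (gene Acta2) drives GFP. Cells of several hearts were pooled for each sort, so no library holds a spread between animals. The uninjured cells were plated and not sorted, and thus differ from both sorts by handling and by injury.

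There are no replicates. Differences below were neither tested nor checked against a second library of the same group, and each value describes a library and not a condition. The libraries could not be checked fully against their labels. The number in the title and in the description of a sample record disagree for the libraries labelled uninjured and αSMA+. Acta2 had an FPKM (fragments per kilobase of transcript, scaled to library size) of 65 in αSMA+ and 279.8 in FSP1+ as labelled, which goes against the labels. S100a4 had 12.0 and 30.8, which goes the way the labels say. Pecam1, which encodes CD31, had 41.8 in αSMA+ and 156.5 in FSP1+, though only the FSP1+ sort gated out CD31+ cells. This also goes against the labels. Names such as αSMA+ below therefore stand for the library labelled so, and directions would change with the labels. The 3 tables each pair 2 libraries and were scaled separately, and a library's FPKM differs between its tables by a constant factor of 0.867 to 1.19, and ratios were formed within a table only. The comparisons share libraries and are not independent. From the steps of the lowest values, 1 read on a transcript of 1000 bases was worth 0.0686 to 0.130 FPKM, which is the precision of low values. Read numbers below were estimated from these steps. Dcn, a proteoglycan gene of fibroblasts, had an FPKM of 3145 in αSMA+ and 851 in FSP1+, and 2009 in uninjured beside 3728 for αSMA+. Pdgfra, a surface marker of cardiac fibroblasts, had 323 in αSMA+ and 16.5 in FSP1+, and 376 in uninjured beside 383 for αSMA+, so this marker was low in the library labelled FSP1+. The entries of Pdgfra and Col3a1 each hold a small RNA gene, so their values are less certain. The list of fibroblast markers was split between the sorts, with 4 of 10 at least 2-fold higher in αSMA+ (Dcn and Pdgfra among them) and 4 lower (Col1a1, Col1a2, Col3a1 and Postn), and a median log2 ratio of −0.81.

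CXC ligands of this kind carry a Glu-Leu-Arg motif next to their first cysteines and bind Cxcr2, the receptor by which neutrophils follow them into injured tissue. Csf3 (G-CSF) drives the production and release of neutrophils through Csf3r, Csf2 (GM-CSF) acts on granulocytes and macrophages, and Csf1 (M-CSF) keeps macrophages and monocytes alive. In fibroblasts and endothelial cells the ligand genes are known as rapid targets of NF-κB, and many of their transcripts carry AU-rich elements that shorten their life. After infarction, neutrophils are among the first cells to enter the myocardium, followed by monocytes.

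Sequence around the ligand genes is given first, because some members share features that the choice of genes did not use. RefSeq promoter windows of 300 bases on GRCm38.p6, from 250 before to 50 after the start, were matched for 7 of the 9 genes (not Cxcl5 and Csf3). The stretches of 130 bases before the start of Cxcl1 (chr5:90891115-90891244, plus strand), Cxcl2 (chr5:90903769-90903898, plus strand) and Cxcl3 (chr5:90785971-90786100, plus strand) are printed 5′ to 3′, with matches to the NF-κB consensus and to TATAAA in capitals.
Cxcl1: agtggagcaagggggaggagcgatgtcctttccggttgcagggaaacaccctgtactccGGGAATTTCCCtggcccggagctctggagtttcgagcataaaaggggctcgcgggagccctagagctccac
Cxcl2: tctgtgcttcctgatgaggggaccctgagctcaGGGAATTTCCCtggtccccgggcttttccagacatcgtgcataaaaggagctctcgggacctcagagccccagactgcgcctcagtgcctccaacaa
Cxcl3: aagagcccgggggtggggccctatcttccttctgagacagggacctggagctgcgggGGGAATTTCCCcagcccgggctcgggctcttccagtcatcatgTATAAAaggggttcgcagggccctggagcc
The same capital run stands in all 3, from −71 to −61 relative to the start in Cxcl1, −97 to −87 in Cxcl2 and −73 to −63 in Cxcl3, and holds 2 overlapping matches to the consensus, 1 on each strand. Csf1 (−154 to −145) and Csf3r (−129 to −120) had 1 match each, with other letters than that run. Thus 5 of 7 windows held the consensus, against 8.46% of 32851 RefSeq windows. Cxcl1, Cxcl2 and Cxcl3 are related genes of 1 cluster with the same run, so these windows are not independent cases. TATAAA, searched on both strands, was found in the window of Cxcl3 only among the 7, and in 13.6% of all windows. TGANTCA, the letters of AP-1 sites, was found in none of the 7 and in 7.81% of all. A match is a description of letters and does not show a binding site.

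The 3′ UTRs of the CXC ligands, Csf2 and Csf3 are rich in the pentamer ATTTA, the core of AU-rich elements. The window of 30 bases with the most pentamers is printed for the genes with more than 1 copy of the nonamer TTATTTATT (transcript strand of GENCODE M21, each ATTTA in capitals).
Csf2: tttaaatATTTATTTATTTATTTATTTAtt
Cxcl1: gggtcctATTTATTTAtgtATTTATTTAtt
Cxcl2: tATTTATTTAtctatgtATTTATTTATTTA
These lie at chr11:54247327-54247356 (minus strand) for Csf2, chr5:90892604-90892633 (plus strand) for Cxcl1 and chr5:90905327-90905356 (plus strand) for Cxcl2. The 3′ UTR of Csf2 held 9 pentamers in 317 bases, a density of 28.4 per kilobase, that of Cxcl2 15.0, of Cxcl1 11.8, of Csf3 8.97, of Cxcl3 7.75 and of Cxcl5 4.50, against a median of 1.09 over 13115 coding genes. Csf1 (1.89) and Cxcr2 (1.10) were closer to that median, and Csf3r had no ATTTA. The nonamer occurred 4 times in Csf2, 4 times in Cxcl2, 2 times in Cxcl1 and 1 time in Cxcl3, while 6.40% of all genes held it at least once and 1.27% at least 2 times.

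All 4 CXC ligands had their highest level in the library labelled αSMA+ and their lowest in the library labelled uninjured. Cxcl1 (chromosome 5 of GRCm38, 90891245 to 90893115, 4 exons), the most abundant of them, had an FPKM of 5201 in the library labelled αSMA+ and 300.2 in that labelled FSP1+ in the table that pairs them. The uninjured library had 24.8 beside 6165 for αSMA+, and 28.5 beside 344 for FSP1+. With 1 FPKM added, its log2 ratio was 7.90 for αSMA+ over uninjured, 3.55 for FSP1+ over uninjured and 4.11 for αSMA+ over FSP1+. In the αSMA+ library Cxcl1 was the entry with rank 9 of 31930 by FPKM.

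Cxcl2 (chromosome 5, 90903899 to 90905938), like Cxcl1 a ligand of Cxcr2 released early at injured sites, had an FPKM of 1521 in the library labelled αSMA+ and 177 in that labelled FSP1+. In the uninjured library it had 2.87 beside 1804 for αSMA+, and 3.31 beside 203 for FSP1+. Its log2 ratio was 8.87 for αSMA+ over uninjured, 5.57 for FSP1+ over uninjured, the highest of the 9 genes there, and 3.10 for αSMA+ over FSP1+, the lowest of the 4 ligands.

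Cxcl5 (chromosome 5, 90759298 to 90761625), a ligand made by stromal and epithelial cells, had an FPKM of 634 in the library labelled αSMA+ and 21.0 in that labelled FSP1+, with 7.04 in uninjured beside 751 for αSMA+ and 8.09 beside 24.1 for FSP1+. Its log2 ratio was 6.55 for αSMA+ over uninjured, 1.47 for FSP1+ over uninjured and 4.85 for αSMA+ over FSP1+. Cxcl3 (chromosome 5, 90786101 to 90788093) was the least abundant ligand, with an FPKM of 168 in the library labelled αSMA+ and 2.57 in that labelled FSP1+. In the uninjured library it had 0.104 beside 199.6 for αSMA+ and 0.120 beside 2.95 for FSP1+, which is about 1 read, so the ratio of FPKM with nothing added was 1916 for αSMA+ (exact 95% interval 321 to 70700, counting error only) and 24.6 for FSP1+ (3.90 to 936). With 1 FPKM added the log2 ratio of Cxcl3 was 7.51, 1.82 and 5.57 in the same order, and with 5 FPKM added it was 0.63 for FSP1+ over uninjured, under 2-fold. Cxcl2 and Cxcl3 share 61 stretches of 50 bases, 5.75% and 6.31% of those in their transcripts, and reads from there cannot be divided between them.

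**Figure D1:**
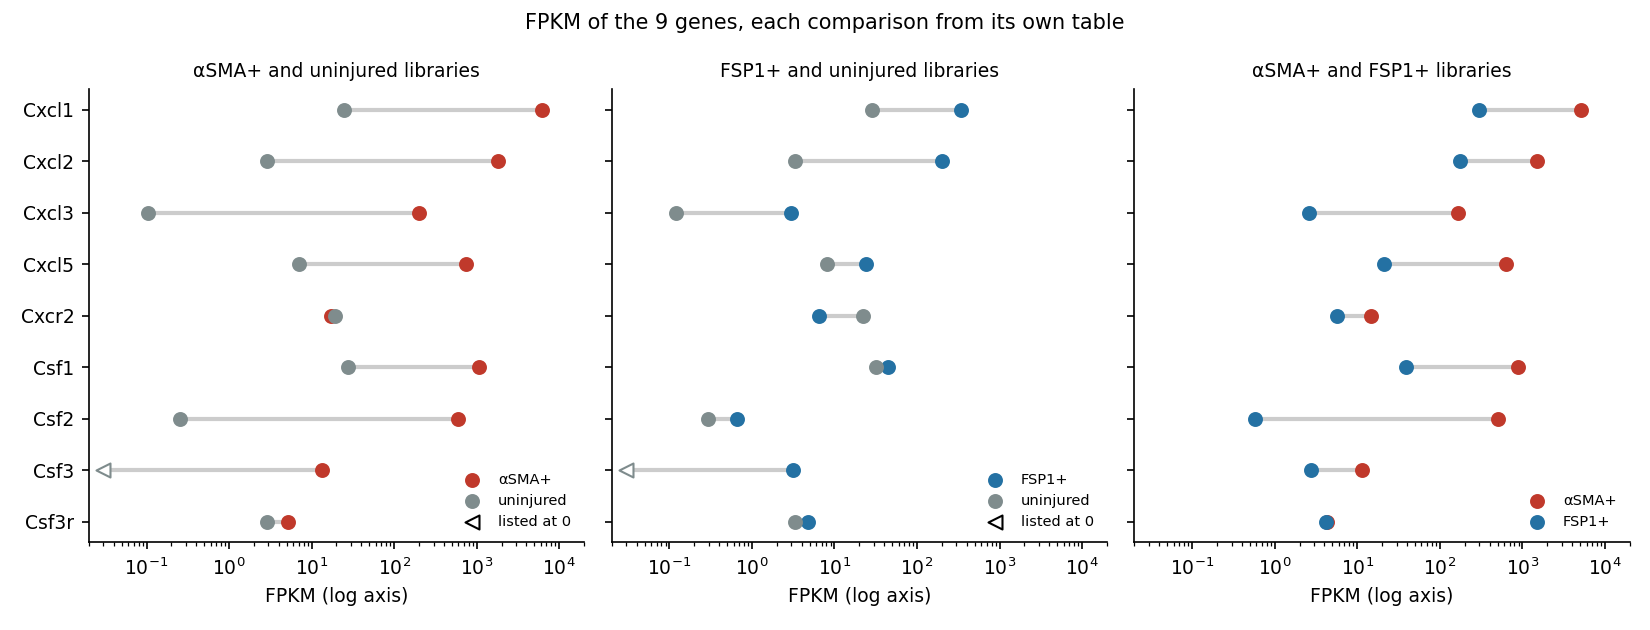
FPKM of the 9 genes on a log axis, with 1 point per library (red αSMA+, blue FSP1+, grey uninjured) and 1 panel per table, and an open triangle for a gene listed at 0. The 4 ligands and Csf1, Csf2 and Csf3 have their αSMA+ point to the right in both panels that hold it, while the points of Cxcr2 (17.2 and 19.1) and Csf3r (5.15 and 2.87) lie close together in the first panel.

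Within a library, shares of the summed FPKM of the 4 ligands do not depend on how the tables were scaled. Cxcl1 held 69.1% of the sum in the library labelled αSMA+, 59.9% in that labelled FSP1+ and 71.2% in that labelled uninjured. Cxcl2 held 20.2%, 35.4% and 8.26%, and Cxcl5 held 8.42%, 4.2% and 20.2%, in the same order. Cxcl3 held 2.24%, 0.513% and 0.3%. Cxcl1 was thus the leading ligand in each library, while Cxcl5 came before Cxcl2 in the uninjured library only.

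**Figure D2:**
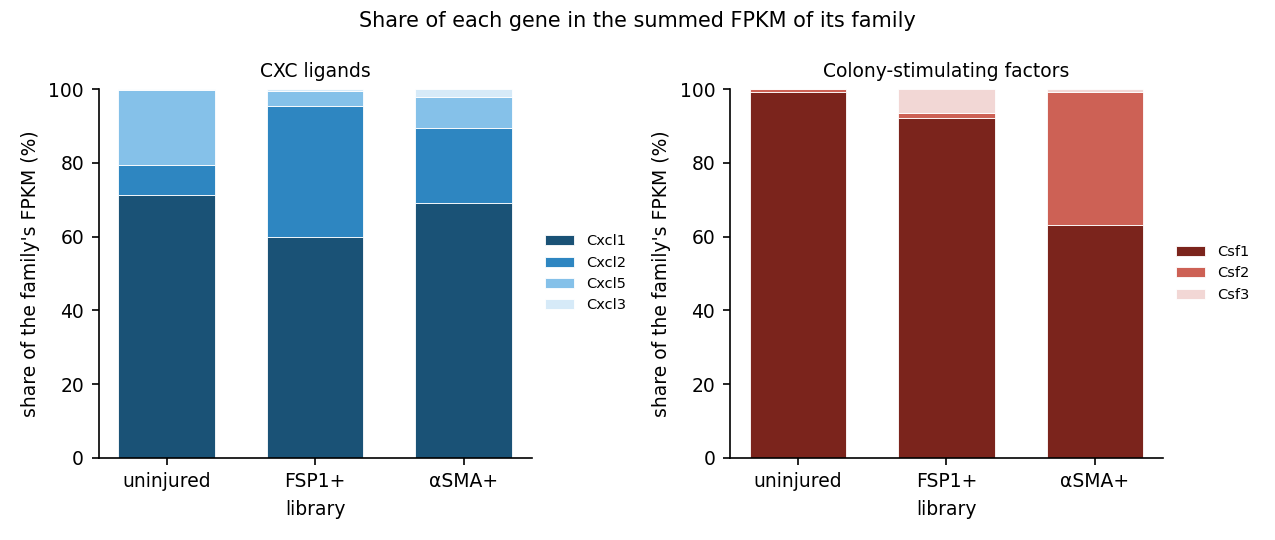
Share (%) of each CXC ligand (left) and of each colony-stimulating factor (right) in the summed FPKM of its family, 1 bar per library. Cxcl1 is the largest part of every ligand bar (59.9% to 71.2%), and Csf2 takes 36.1% of the αSMA+ bar against 0.922% and 1.37% of the uninjured and FSP1+ bars.

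Csf2 had the largest ratio of the 9 genes between the libraries labelled αSMA+ and FSP1+. Csf2 (chromosome 11, 54247270 to 54249899), which encodes GM-CSF, had an FPKM of 507 in the library labelled αSMA+, from about 4299 reads, and 0.578 in that labelled FSP1+, from about 7. Its log2 ratio there was 8.33, and 9.55 or 6.52 with 0.1 or 5 FPKM added in place of 1. The uninjured library had 0.258 beside 601 for αSMA+, about 2 reads, for a log2 ratio of 8.90 and a ratio with nothing added of 2333 (exact 95% interval 587 to 17500, counting error only). Between FSP1+ (0.664) and uninjured (0.298) Csf2 was below 1 FPKM in both libraries and was not counted, and a difference was not detectable at this depth (ratio 2.23, interval 0.405 to 21.0).

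Csf1 (chromosome 3, 107741048 to 107760469), the survival factor of macrophages, had an FPKM of 888 in the library labelled αSMA+ and 39.0 in that labelled FSP1+. In the uninjured library it had 27.7 beside 1052 for αSMA+ and 32.0 beside 44.7 for FSP1+. Its log2 ratio was 5.20 for αSMA+ over uninjured and 4.48 for αSMA+ over FSP1+, and 0.47 for FSP1+ over uninjured, under 2-fold. Csf1 held 99.1% of the summed FPKM of the 3 factors in the uninjured library, 92.2% in the FSP1+ library and 63.1% in the αSMA+ library, where Csf2 held 36.1%.

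Csf3 (chromosome 11, 98701313 to 98703629), which encodes G-CSF, was the lowest of the 3 factors in the αSMA+ library. It had an FPKM of 11.4 in the library labelled αSMA+, from about 170 reads, and 2.73 in that labelled FSP1+, from about 56, for a log2 ratio of 1.73. In the uninjured library it was listed at 0, beside 13.5 for αSMA+ and 3.14 for FSP1+. The log2 ratios over uninjured, 3.86 and 2.05, are set by the 1 FPKM added and are no bounds, and with 5 FPKM added they were 1.89 and 0.70, the latter under 2-fold.

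The receptors did not share the pattern of the ligands. Cxcr2 (chromosome 1, 74153994 to 74161246) had an FPKM of 14.5 in the library labelled αSMA+ and 5.71 in that labelled FSP1+, with 19.1 in uninjured beside 17.2 for αSMA+ and 22 beside 6.56 for FSP1+. Its level was thus highest in the uninjured library, from about 512 reads and by a small margin over αSMA+, and lowest in the FSP1+ library. Cxcr2 shares 58 stretches of 50 bases with transcripts of other genes and Csf3r 41, which is 1.94% and 1.19% of those in their transcripts. The log2 ratio of Cxcr2 was −0.14 for αSMA+ over uninjured, −1.61 for FSP1+ over uninjured and 1.21 for αSMA+ over FSP1+, the last of which was 0.86 with 5 FPKM added, under 2-fold. Csf3r (chromosome 4, 126024659 to 126044975), the receptor of G-CSF, had an FPKM of 4.35 and 4.16 in the libraries labelled αSMA+ and FSP1+, with 2.87 in uninjured beside 5.15 for αSMA+ and 3.32 beside 4.77 for FSP1+. Its log2 ratios were 0.67, 0.42 and 0.05 in the order αSMA+ over uninjured, FSP1+ over uninjured and αSMA+ over FSP1+, the last of them −0.07 with each library rescaled to one common total (TPM). Cxcr1, the related receptor, was below 1 FPKM in each library (0.105 to 0.286 where above 0, and listed at 0 in FSP1+). In bulk samples, fewer cells of a type and less RNA per cell cannot be told apart.

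The counts that follow describe the 9 genes only, since these were chosen with earlier results of these data known. Counted over the 9 genes at 2-fold (with 1 FPKM added, among entries of at least 1 FPKM in either library), 7 were higher and none lower in αSMA+ than in uninjured, and the other two were Cxcr2 and Csf3r. Among all 17204 entries measured there, 17.0% were higher and 7.11% lower, with a median log2 ratio of 0.05 against 6.55 for the 9 genes. Cxcl3, Csf2 and Csf3 were below 1 FPKM in uninjured and entered this count through αSMA+ alone, so they could not be counted as lower. With at least 1 FPKM required in both libraries, 4 of 6 genes were higher, and 2434 of 14681 entries. For FSP1+ over uninjured, 8 of the 9 were measured, and 5 were higher (the 4 ligands and Csf3), 1 was lower (Cxcr2), and Csf1 and Csf3r were neither. Of all 17578 entries, 14.6% were higher and 16.0% lower, with a median of 0.02 against 1.64 for the 8 genes. For αSMA+ over FSP1+, 8 of 9 were higher, none lower, and Csf3r was neither, against 14.5% higher and 19.1% lower of 16374 entries, with a median of −0.04 against 4.11. With at least 1 FPKM required in both libraries, 3 of 6 genes were higher and 1 lower for FSP1+ over uninjured, without Cxcl3 and Csf3. For αSMA+ over FSP1+, 7 of 8 were then higher, without Csf2. The split of all entries depends on scaling. With TPM, 1720 were higher and 3742 lower for αSMA+ over uninjured, in place of 2924 and 1224, and 2124 higher and 4106 lower for FSP1+ over uninjured, in place of 2565 and 2820. With the ratio taken through the third library instead, the splits were 2313 and 1809, 3374 and 1876, and, for αSMA+ over FSP1+, 3454 higher and 2460 lower in place of 2376 and 3135. The median log2 ratio of all entries moved by −0.52, −0.20 and −0.13 with TPM and by −0.21, 0.20 and 0.21 through the third library, and the counts of the 9 genes stayed as given.

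**Figure D3:**
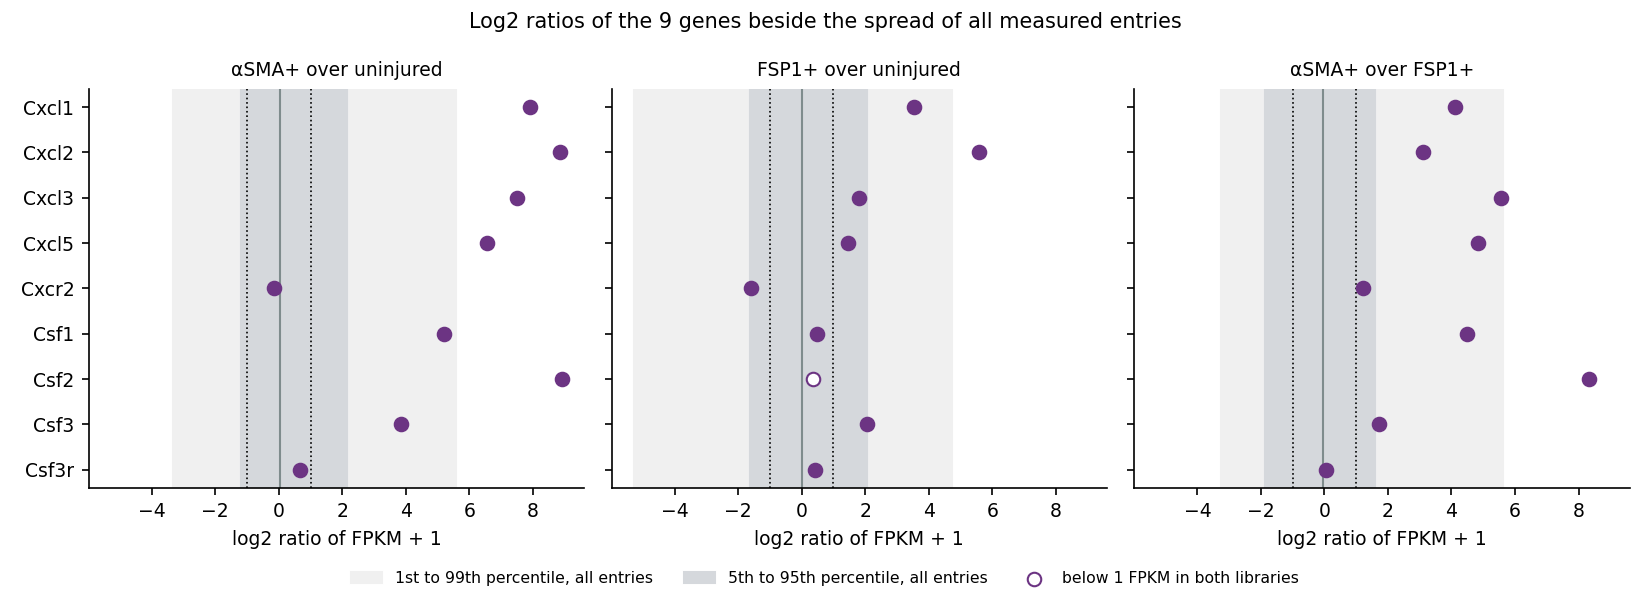
Log2 ratio of FPKM with 1 added for the 9 genes (points) in each comparison, with the 5th to 95th and 1st to 99th percentiles of all measured entries shaded, their median as a grey line and 2-fold as dotted lines. The 4 ligands lie at 6.55 to 8.87 for αSMA+ over uninjured, to the right of the 99th percentile of 5.57. For FSP1+ over uninjured they lie at 1.47 to 5.57. There only Cxcl2 passes the 99th percentile of 4.73, and Cxcl3 and Cxcl5 lie below the 95th of 2.06. For αSMA+ over FSP1+ all 4 (3.10 to 5.57) lie between the 95th percentile of 1.59 and the 99th of 5.64.

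The 4 ligand genes lie on chromosome 5 in a cluster that holds further CXC genes, with the first bases of Cxcl5, Cxcl3 and Cxcl2 at −132, −105 and 12.7 kb from that of Cxcl1. Within 250 kb of the first base of Cxcl1, 10 of 12 entries had a symbol, and 4 named genes outside the 9 were measured. The remaining 2 entries share a locus at 160.6 kb and have no symbol, and their log2 ratios were 3.31, −0.35 and 3.41 for one and −0.45, −1.06 and 0.38 for the other, in the order αSMA+ over uninjured, FSP1+ over uninjured and αSMA+ over FSP1+. Pf4 and Ppbp, the platelet and megakaryocyte chemokines that lie between Cxcl5 and Cxcl3, were also higher than in uninjured, but had their highest level in the other sort. Pf4 had an FPKM of 203 in αSMA+ and 375 in FSP1+ (log2 ratio −0.88), and 6.52 in uninjured beside 240.5 for αSMA+ (log2 ratio 5.01). Ppbp had 12.9 in αSMA+ and 48.6 in FSP1+ (log2 ratio −1.83), and its log2 ratio over uninjured was 3.68 for αSMA+ and 5.43 for FSP1+. Areg, which encodes the EGF receptor ligand amphiregulin, was higher in all 3 comparisons (log2 ratios 3.48, 2.23 and 1.17), and the metabolic gene Mthfd2l, next to Cxcl2, was under 2-fold in each (0.76, 0.10 and 0.43). Proximity in the cluster therefore went with unequal ratios, in opposite directions for Ppbp and Cxcl3 between αSMA+ and FSP1+.

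**Figure D4:**
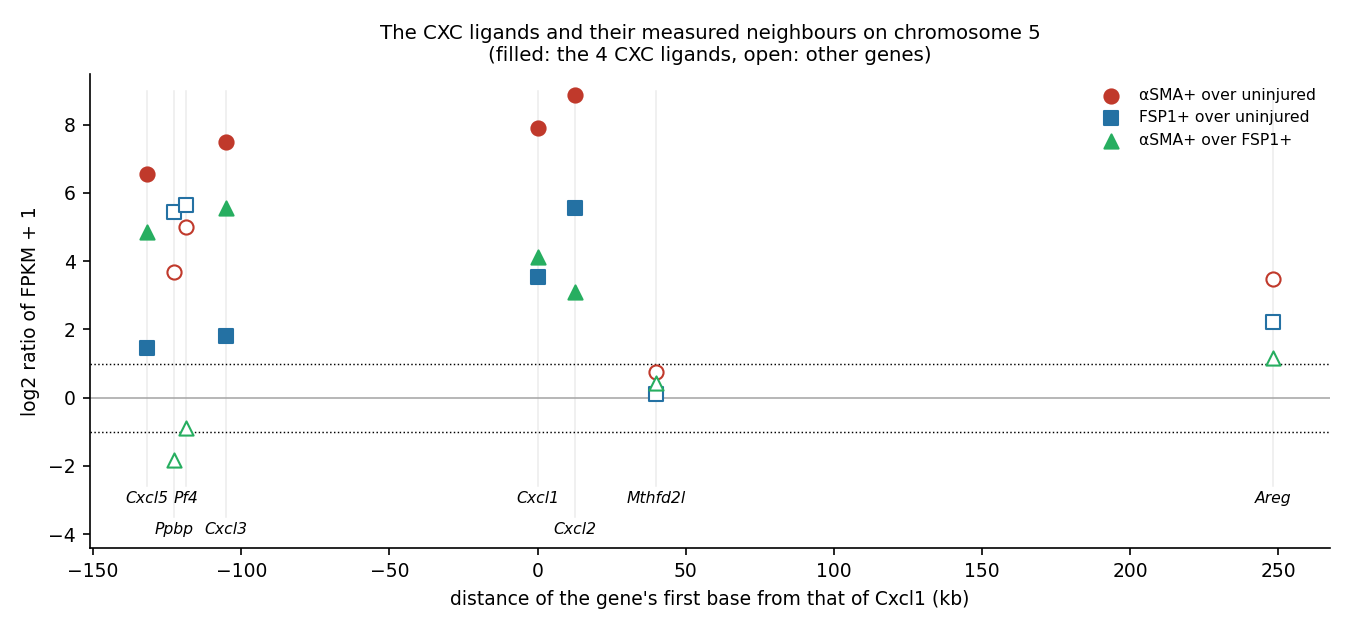
Log2 ratio of FPKM with 1 added (vertical axis) against the distance of each gene's first base from that of Cxcl1 in kb (horizontal axis), for measured genes within 250 kb, with filled symbols for the 4 ligands and open symbols for other genes. For αSMA+ over FSP1+ (triangles) the ligands lie at 3.10 to 5.57, while Pf4 and Ppbp lie at −0.88 and −1.83.

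Of 18 other CXC and CX3C chemokines and receptors listed, 13 had an entry of their own, and those measured were mostly under 2-fold. For comparison, 17.0% of all entries were higher and 7.11% lower for αSMA+ over uninjured. These shares were 14.6% and 16.0% for FSP1+ over uninjured, and 14.5% and 19.1% for αSMA+ over FSP1+. Of 10 measured for αSMA+ over uninjured, 4 were higher (Pf4, Ppbp, Ackr3 at 2.45 and Cxcr5 at 1.05 on the log2 scale) and none lower, with a median of 0.66. For FSP1+ over uninjured, 3 of 9 were higher (Pf4, Ppbp and Cxcr4 at 1.64) and none lower. Ackr3, a receptor that removes Cxcl12 without classical signalling, had an FPKM of 223 in αSMA+ and 51.7 in FSP1+ (log2 ratio 2.09), and was the single one of 10 higher there, while Ppbp, Cxcr4 (−1.16) and Cx3cl1 (at the 2-fold limit) were lower. Cxcl14, a chemokine of stromal cells, was under 2-fold throughout, with an FPKM of 29.9 in αSMA+ and 23.2 in FSP1+.

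Among the other genes of the colony-stimulating factor system, 4 of 5 listed had an entry of their own. Csf2ra, the chain that binds GM-CSF, had an FPKM of 22.2 in the library labelled αSMA+ and 58.4 in that labelled FSP1+ (log2 ratio −1.35), and its log2 ratio over uninjured was 0.98 for αSMA+ and 2.10 for FSP1+. The level of this receptor chain was thus highest in the library where Csf2 had about 7 reads. Il34, the other ligand of the Csf1 receptor, had 1.64 in αSMA+ and 6.41 in FSP1+ (log2 ratio −1.49), and −1.29 for αSMA+ over uninjured. The shared signalling chain Csf2rb had an FPKM of 7.15 and 7.45 and its close copy Csf2rb2 of 7.57 and 4.76, and Csf2rb2 had a log2 ratio of 1.45 for αSMA+ over uninjured. Reads may be divided between Csf2rb and Csf2rb2, and both entries hold a small RNA gene, so their values are uncertain.

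A list of cytokines, receptors and adaptors of the interleukin 1, interleukin 17, TNF and related pathways, which are known to act upstream of the ligand genes, was also mostly higher in αSMA+. Of the 23 on the list 16 were measured, and 13 were higher and none lower in αSMA+ than in uninjured (median log2 ratio 2.45), and 10 were higher and 2 lower (Il17rc at −1.37 and Osm at −1.26) in αSMA+ than in FSP1+ (median 1.28). For FSP1+ over uninjured 6 were higher and 1 lower (Il17f at −1.78, median 0.65). The list includes the adaptors Myd88 and Traf6, the kinase gene Irak1, and Il1rn, which encodes the interleukin 1 receptor antagonist and opposes induction. Il1rn was higher in all 3 comparisons (log2 ratios 5.38, 3.57 and 1.71), so the counts are not of inducers alone. Il1r1, the signalling receptor of interleukin 1, had an FPKM of 101 in αSMA+ and 16.0 in FSP1+ (log2 ratio 2.58), Il33, an alarmin of the same family, 92.8 and 23.5 (1.94), and Tnfrsf1a, the main TNF receptor of stromal cells, 126 and 108 (0.22). Il6 had 1376 and 93.9. Il17ra, a receptor chain of interleukin 17, had 51.4 and 9.92 (2.26). Tnf itself went the other way, with 11.6 in αSMA+ and 17.4 in FSP1+ (−0.55, under 2-fold). Its log2 ratio over uninjured was 3.78 for αSMA+ and 4.27 for FSP1+. Between the sorts, Myd88 (−0.12) and Irak1 (−0.04) were under 2-fold and Traf6 was higher (1.03). The entry of Irak1 holds a small RNA gene, so its value is less certain.

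NF-κB subunits, inhibitors and targets, with regulators of AU-rich transcripts, were higher than in uninjured for 21 of 22 measured genes in αSMA+ (median log2 ratio 3.05) and for 12 of 22 in FSP1+ (median 1.22), with none lower in either. Between αSMA+ and FSP1+, 12 of 22 were higher and none lower (median 1.12). Of the subunit genes, Rel was higher (1.17), while Nfkb1 (0.997), Rela (0.58) and Relb (0.55) were under 2-fold. Nfkbie (−0.81) and Bcl3 (−0.86) went the other way, also under 2-fold. The largest log2 ratios were those of the targets Lif (6.81) and Ptgs2 (5.47), so the count is not of subunits alone. Nfkbia, the inhibitor IκBα that NF-κB itself induces, had an FPKM of 836 in αSMA+ and 509 in FSP1+ (log2 ratio 0.71), and its log2 ratio over uninjured was 4.27 and 3.31. Ccl2 had 4997 and 330 (3.92), Ccl7, which like Ccl2 draws monocytes, 3358 and 339 (3.31), and the adhesion molecule gene Vcam1 1108 and 80.2 (3.77). Zfp36, which encodes the decay factor tristetraprolin that binds AU-rich elements, was under 2-fold between the sorts, with 471 in αSMA+ and 753 in FSP1+ (−0.67), while Elavl1, which encodes the stabilising protein HuR, had 38.1 and 15.7 (1.23). Both were higher than in uninjured in αSMA+ (3.33 for Zfp36 and 1.87 for Elavl1).

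Genes outside the 9 that hold the same sequence elements can be set beside them. Of 132 other measured coding genes with at least 2 nonamers, 25% were at least 2-fold higher in αSMA+ than in uninjured, and 18.9% of 9524 genes without. Between αSMA+ and FSP1+ the shares higher were 18.1% and 11.7%, and between FSP1+ and uninjured 12.2% and 15.8%. With the NF-κB consensus before the start, 20.4% of 897 other genes were higher in αSMA+ than in uninjured, against 16.4% of 8159 without it, 16.9% against 13.7% were higher in FSP1+ than in uninjured, and 13.9% against 13.1% were higher in αSMA+ than in FSP1+. The shares lower, in the order αSMA+ over uninjured, FSP1+ over uninjured and αSMA+ over FSP1+, were 2.27%, 9.92% and 11.8% with at least 2 nonamers, against 6.51%, 10.5% and 20.8% without. With the NF-κB consensus they were 6.91%, 9.28% and 20.8%, against 6.10%, 14.6% and 19.2% without. Most genes with either element were thus under 2-fold in these comparisons.

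Markers of other cell types moved with the comparisons, and their sums and counts cover only listed markers with an entry of their own. These were 15 of 17 macrophage and monocyte, 10 of 12 endothelial, 8 of 12 mural and 10 of 12 fibroblast markers. Neutrophil markers, of which 16 of 22 had an entry of their own, had a summed FPKM of 70 in αSMA+ and 241.4 in FSP1+, and 25.4 in uninjured beside 83.0 for αSMA+. The alarmin genes S100a8 and S100a9, abundant in neutrophils, had 9.18 and 5.25 in αSMA+ and 96.2 and 42 in FSP1+, with 0.969 and 1.14 in uninjured beside αSMA+. Mpo was below 1 in each library, and Ly6g was not analysed here. Lcn2 had 2.57 in αSMA+ and 52.6 in FSP1+. Of 14 measured, 7 were lower and 2 higher in αSMA+ than in FSP1+ (Clec4e at 2.01 and Clec4d at 1.32, median −0.83), and of 13, 5 were higher in αSMA+ than in uninjured (Clec4d, Clec4e, S100a8, S100a9 and Fpr1) and Retnlg lower. By summed FPKM, neutrophil markers were thus highest in the FSP1+ library, where S100a8, Lcn2 and S100a9 were the most abundant of them. Clec4e (21.6 in αSMA+ and 4.59 in FSP1+) and Clec4d (17.9 and 6.55) went the other way. The ligands were highest in the αSMA+ library and Cxcr2, by a small margin, in the uninjured library.

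Macrophage and monocyte markers had a summed FPKM of 1366 in αSMA+ and 3897 in FSP1+ and 103 in uninjured beside 1619 for αSMA+, with 13 of 15 higher in αSMA+ and 15 of 15 in FSP1+ than in uninjured (medians 3.24 and 4.14), and 11 of 15 lower in αSMA+ than in FSP1+. Lyz2, a lysozyme gene of myeloid cells, had 469 in αSMA+ and 1063 in FSP1+, C1qb 217 and 776, C1qc 160 and 627, and Cd14 146 and 313. Itgam had 7.96 and 21.7, and Ptprc, which encodes CD45, 9 and 12.1, though CD45+ cells had been gated out of FSP1+. Endothelial markers summed to 271 and 1051. Pecam1, which encodes CD31, had 41.8 and 157, though CD31+ cells had also been gated out of FSP1+. Esam had 38.7 and 256, Tie1 34.0 and 133 and Kdr 21.5 and 116. Mural markers summed to 196 and 729, with Myh11 at 30.9 and 171, Mcam at 7.58 and 76.2 and Cnn1 at 23.5 and 74.6. All of these lists were thus lower in αSMA+ than in FSP1+, in the direction opposite to the 4 ligands, Csf1 and Csf2. Over uninjured, macrophage and endothelial markers were higher, like the ligands, in both sorts, for endothelial markers 8 of 10 in αSMA+ (median 1.92) and 10 of 10 in FSP1+ (median 3.97). In FSP1+, 8 of 13 neutrophil markers were also higher than in uninjured (median 1.49, summed FPKM 277 against 29.3), as were 4 of 8 mural markers (Mcam, Myh11, Cnn1 and Acta2, median 1.23). In αSMA+, 2 of 8 mural markers were lower than in uninjured (Cspg4 and Kcnj8). The part of these cell types in the ratios over uninjured was not tested.

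Among 10 fibroblast markers, 4 were higher in αSMA+ than in FSP1+ (Pdgfra at 4.21, Gsn at 3.09, Dcn at 1.88 and Lum at 1.44 on the log2 scale) and 4 lower (Col1a1 at −1.75, Postn at −1.72, Col3a1 at −1.64 and Col1a2 at −1.56). Over uninjured, 8 of 10 were lower and none higher in FSP1+ (median −1.22), with Pdgfra at −4.44 and Col1a2 at −1.46. In αSMA+, 4 were lower than in uninjured (Col1a1 at −2.68, Col1a2 at −2.76, Col3a1 at −2.79 and Postn at −2.55) and Gsn was higher (2.20). The markers that were lower thus went in the direction opposite to the ligands over uninjured, and the part of this difference in the ligand ratios was not tested. Gsn had an FPKM of 20694 and 2426 and Vim of 1031 and 1736. Of 10 cardiomyocyte markers listed, 4 had an entry of their own. In αSMA+ and FSP1+, Tnnt2 had 27.8 and 19.9, Tnni3 18.5 and 8.10, Ttn 3.77 and 1.03 and Ryr2 1.13 and 0.449. Between the sorts 2 of the 4 were higher in αSMA+ (Ttn at 1.23 and Tnni3 at 1.10) and none lower, with a median of 0.83. Over uninjured, 2 were higher in αSMA+ (Tnni3 at 1.72 and Tnnt2 at 1.49), and 1 was lower in FSP1+ (Ttn at −1.12). Immediate early and dissociation stress genes were higher than in uninjured for 14 of 17 genes in αSMA+ (median 2.02) and 17 of 17 in FSP1+ (median 2.69), and between the sorts 10 were lower in αSMA+ and 3 higher (Hmox1, Myc at 2.65 and Ier3 at 1.32). Junb had 2022 in αSMA+ and 2575 in FSP1+, Hspa1a 296 and 1535, and Hspa1b 601 and 1664. These genes respond to cell isolation, and uninjured cells were plated while the others were sorted, so injury and handling cannot be told apart in the ratios over uninjured.

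**Figure D5:**
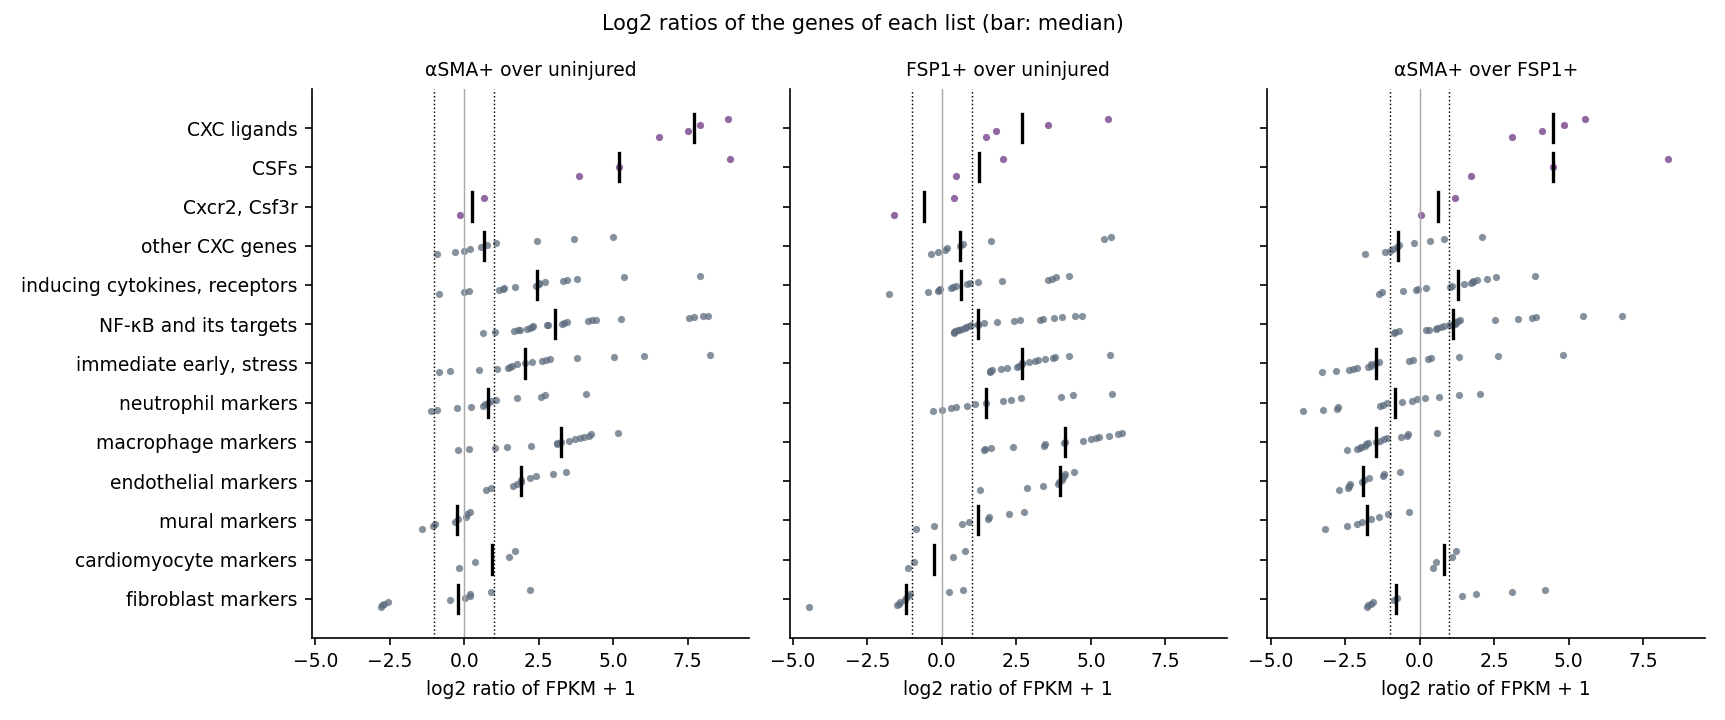
Log2 ratio of FPKM with 1 added for each measured gene (points) of the lists, with the median as a bar and 2-fold as dotted lines, 1 panel per comparison. The ligands (median 4.48) lie to the right for αSMA+ over FSP1+, while the medians of macrophage (−1.46), endothelial (−1.91) and mural (−1.78) markers lie to the left.

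The genes whose 3 log2 ratios were nearest to the medians of the 4 ligands (7.70, 2.68 and 4.48), among 5237 coding genes of at least 10 FPKM in any library, were Hmox1, Has1, Ptgs2, Il6, Tnfaip6 and Ccl2. The measure is the Euclidean distance over the 3 ratios, which come from 3 libraries. For comparison, that of the ligands themselves was 0.961 for Cxcl1, 1.40 for Cxcl3, 1.72 for Cxcl5 and 3.41 for Cxcl2. The ligands thus did not form a tight group, and Cxcl2 lay farther from the medians than each of the genes just named. Hmox1, the stress-induced heme oxygenase, at a distance of 0.834, had an FPKM of 4324 in αSMA+ and 153 in FSP1+, and 15.7 in uninjured beside 5125 for αSMA+. Has1, a hyaluronan synthase (distance 1.24), had 827 and 62.8, and Ptgs2, the inducible cyclooxygenase (1.31), 743 and 15.8. Il6 (1.33), Tnfaip6, which encodes a hyaluronan-binding protein (1.47), and Ccl2 (1.54) followed. Of the 9 genes, Cxcr2 (9.52) and Csf3r (8.62) were farthest from the ligand pattern.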

How the data were processed

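For each of the 3 libraries the authors aligned reads to GRCm38 (Tuxedo Suite), and Cuffdiff gave the levels (version not given in the sources used here). The values that the authors deposited are FPKM, in 3 tables that each pair 2 libraries and were scaled separately. An offset of 0.001 on each value was removed. The labels state single reads of 50 bases, whereas the methods state paired ends. The tables also hold the authors' fold changes, test statistics, p and q columns, which were not used, and no columns of other samples were used (0).

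Entries alone at their locus were given a symbol by position, from RefSeq (GRCm38.p6) and then GENCODE M21, where spans overlapped by at least 0.8 of their union and the next gene by less than 0.7. Log2 ratios were taken with 1 FPKM added among entries of at least 1 FPKM in either library, and counted at 2-fold. With 1 library per group there was no test and no SD. Read numbers were estimated from the first step of FPKM times length among entries below 0.3 FPKM. Intervals are exact (Clopper-Pearson) and cover counting error only. Members and gene lists were chosen with earlier results of these data known. Named genes were all 9 members, the 4 most abundant of each list, any gene in a count of 5 or fewer, the reporter genes, defining markers and the 6 nearest patterns. Il17ra, Tnf, Zfp36, Elavl1, Cxcr1, Mpo, Mthfd2l and Areg, and Pdgfra as a check of the label, were named after their values were seen. So were Nfkb1, Rela, Relb, Rel, Nfkbie, Bcl3 and Lif, and the ratios of Myd88, Irak1 and Traf6. Alternatives were another pseudocount, filter, scaling, table or threshold. The ratio and the step were tested on simulated data. The tools were SciPy 1.17.1, NumPy 2.4.6, pandas 2.3.3 and matplotlib 3.10.9 under Python 3.11.15.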

Additional observations from a re-analysis of the deposited data

How the results depend on the processing

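No paired analysis was possible because each group has 1 library, and for the same reason no library could be left out. No member or list ratio of at least 2-fold changed sign under any alternative. The members higher in αSMA+ than in uninjured were 4 with at least 1 FPKM required in both libraries, in place of 7, since Cxcl3, Csf2 and Csf3 then left the count. The members higher in FSP1+ than in uninjured were 3, in place of 5, with 5 FPKM added, with at least 5 FPKM in either library, with at least 1 FPKM in both, and at 4-fold, where 0 in place of 1 were lower. The members higher in αSMA+ than in FSP1+ were 7, in place of 8, with 5 FPKM added (without Cxcr2) and with at least 1 FPKM in both libraries (without Csf2), and 6 at 4-fold. With TPM, 3 of 26 member ratios moved by more than 1.5 times, all for αSMA+ over uninjured, to 7.30 for Cxcl1, 4.59 for Csf1 and −0.75 for Cxcr2 on the log2 scale. With 5 FPKM added 10 moved, among them Cxcl2 to 7.84 for αSMA+ and 4.65 for FSP1+ over uninjured, and with 0.1 FPKM added 6 moved, those of Cxcl3, Csf2 and Csf3. Counts over all entries moved by more than 1.5 times as follows. For αSMA+ over uninjured, entries higher were 1720 with TPM and 999 at 4-fold (2924 as given), and entries lower were 2011 with 0.1 FPKM added, 499 with 5 FPKM added, 3742 with TPM and 278 at 4-fold (1224 as given). For FSP1+ over uninjured, entries higher were 1604 with 5 FPKM added and 920 at 4-fold (2565 as given), and entries lower were 4338 with 0.1 FPKM added, 738 with 5 FPKM added, 1389 with at least 5 FPKM in either library, 1276 with at least 1 FPKM in both, 1876 with the ratio taken through the αSMA+ library and 414 at 4-fold (2820 as given). For αSMA+ over FSP1+, entries higher were 3627 with 0.1 FPKM added, 1042 with 5 FPKM added, 1484 with at least 1 FPKM in both and 488 at 4-fold (2376 as given), and entries lower were 1629 with 5 FPKM added and 660 at 4-fold (3135 as given). Through the third library, the split of all entries was 2313 higher and 1809 lower, 3374 and 1876, and 3454 and 2460 in the 3 comparisons. The cause of these moves was not tested. Depth limits Csf2 and Cxcl3 in the uninjured library, at about 2 reads and 1 read, and Csf3, listed at 0 there.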
